A study of Mus musculus with 16 samples.

Results

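EC_10 is a group of 867 cells that the study's authors clustered and named among cells isolated from mouse brown adipose tissue. Its cells were taken here by that name alone, and they made up 29.1% of the 2983 cells in the 6 clusters whose names begin with EC, 3.56% of the 24352 cells that carry any name and 0.790% of all 109723 cells. The prefix EC is read as endothelial cell. The values used here are per-cell annotations (library, housing, cluster, UMI and gene numbers, mitochondrial share and cell cycle scores), and gene values were not analysed here, so the endothelial markers Pecam1, Cdh5 and Cldn5 could not be set against the name.

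Cells came from the stromal vascular fraction, what is left of digested fat tissue once the floating adipocytes are taken off, of interscapular brown fat of C57BL6J mice. The 4 housing groups, of 4 libraries each, were profiled by droplet single-cell RNA sequencing: thermoneutral housing at 30 °C for 1 week, room temperature at 22 °C, and cold at 5 °C for 2 days or for 7 days. In every group the tissue was digested with collagenase and dispase, and the adipocyte layer, red blood cells and dead cells were removed, which can set which cells are counted. The labels used here state no sex, age or number of animals behind a library, and nothing in them says that libraries came from separate animals, so p-values measure the spread between these libraries.

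Endothelial cells line blood vessels and control the passage of oxygen, fuel and immune cells into a tissue. Brown fat burns lipid and glucose to make heat and is densely supplied with capillaries. In cold its nerves and adipocytes release signals, such as noradrenaline and vascular endothelial growth factor, under which the capillary bed of the tissue can grow through division of endothelial cells.

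Between 1473 and 10005 cells made up a library, and library medians of UMIs (unique molecular identifiers, counted RNA molecules) per cell ran from 1978.5 to 9819. Replicate 1 of 2-day cold stood apart: its median mitochondrial share was 29.1%, against 6.01% or less in the other 15 libraries, and none of its cells carried a name. With names needed, 2-day cold therefore has n = 3, and the other groups n = 4. No EC_10 barcode occurred in EC_10 of another library, and 23 of the 867 barcodes also occurred in another library of the whole table.

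The first question was how large a part of the EC cells EC_10 formed in each housing group. At thermoneutrality EC_10 was 14.6%, 13.9%, 36.8% and 27% of the EC cells in replicates 1 to 4, from 69 of 472, 10 of 72, 35 of 95 and 47 of 174 cells. At room temperature the shares were 17.9%, 17.7%, 40.3% and 45.9%, from 54 of 302, 74 of 419, 64 of 159 and 28 of 61 cells. After 2 days in the cold they were 21.8%, 48.6% and 44.4% in replicates 2 to 4, from 77 of 353, 118 of 243 and 84 of 189 cells. After 7 days they were 52.5%, 33.3%, 57.8% and 45.5%, from 83 of 158, 47 of 141, 52 of 90 and 25 of 55 cells. The 7-day libraries other than replicate 2 lay above every thermoneutral library, and the groups overlapped through thermoneutral replicate 3 and 7-day replicate 2. Means were 23.1% ± 11 (SD, n = 4), 30.4% ± 14.8 (n = 4), 38.3% ± 14.4 (n = 3) and 47.3% ± 10.6 (n = 4), in the same order.

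**Figure D1:**
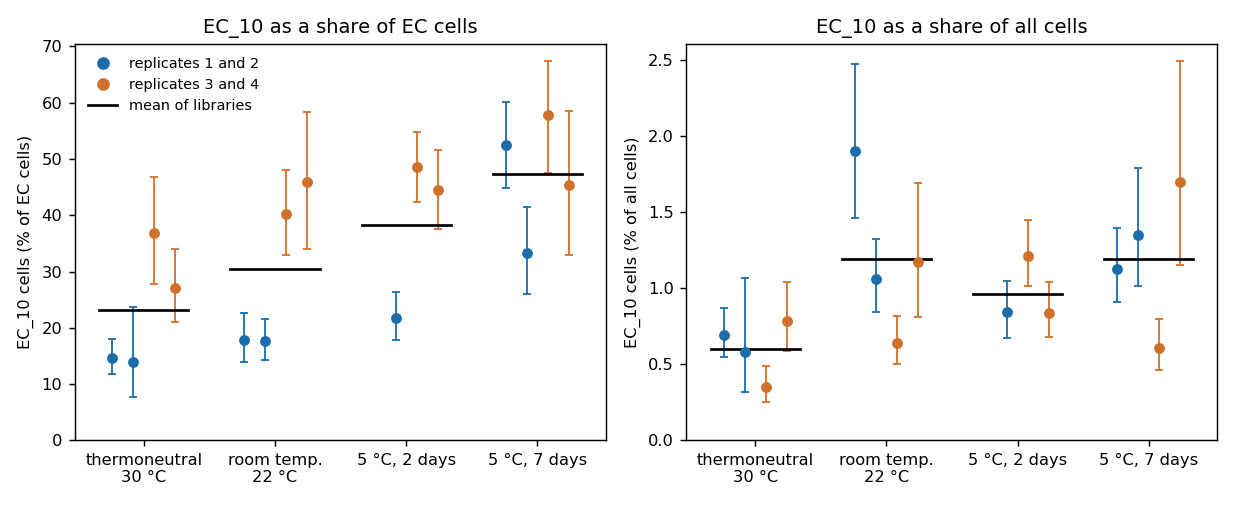
EC_10 as a percentage of EC cells (left) and of all cells (right), by housing group. Points are libraries with 95% Wilson intervals, coloured by replicate set (1 and 2, or 3 and 4), and horizontal lines are group means; on the left the means run from 23.1% at thermoneutrality to 47.3% after 7 days at 5 °C, with replicates 3 and 4 above replicates 1 and 2 in every group but the last.

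EC_10 rose among EC cells between thermoneutrality and 7 days of cold, with a log2 odds ratio of 1.66 ± 0.58 (SE; limma over 5 EC clusters, adjusted p = 0.0153). In that comparison 2 of the 5 clusters were called, a background of 40%, and the other was EC_11, which fell by 2.17 ± 0.58 (limma, adjusted p = 0.00226). Shares of one total cannot move independently, so whether EC_10 gained cells or EC_11 lost them cannot be told apart from these shares. Limma also gave the 5 clusters a common SE. Its p-values thus rest on their joint spread, not on that of EC_10 alone, and may be too small. EdgeR's quasi-likelihood test on the cell numbers also called EC_10 (log2 fold change 1.05, adjusted p = 0.0296), while an exact permutation test of the library shares, a difference of 24.2 percentage points, gave p = 0.0571. The limma call was lost without thermoneutral replicate 1 (adjusted p = 0.0817), thermoneutral replicate 2 (0.0689) or 7-day replicate 3 (0.0662).

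The other contrasts did not pass in this fit, which had no term for the replicate sets. For room temperature against thermoneutrality the log2 odds ratio was 0.53 ± 0.58 (limma, adjusted p = 0.618; 0% of the 5 clusters called), and for 2-day cold against thermoneutrality it was 1.08 ± 0.63 (adjusted p = 0.187; 0% called). For 2-day cold against room temperature it was 0.55 ± 0.63 (limma, adjusted p = 0.478), where 1 of 5 clusters (20%), EC_28, was called. For 7-day cold it was 1.14 ± 0.58 against room temperature (limma, adjusted p = 0.0939; 0% called) and 0.58 ± 0.63 against 2-day cold (adjusted p = 0.461; 0% called). In cells of no less than the median UMI count, 7-day cold against room temperature passed (limma, 1.47, adjusted p = 0.0360). So did 2-day cold against thermoneutrality (limma, 1.59, adjusted p = 0.0390). The former also passed on the arcsine scale (limma, adjusted p = 0.0464) and without room temperature replicate 4 (limma, adjusted p = 0.0301).

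The spread between libraries of one group was 2.05 to 4.71 times the SD that counting alone gives, and it followed the replicate number. Replicates 3 and 4 held more EC_10, 43.3% ± 8.99 of EC cells (SD, n = 8), than replicates 1 and 2, 24.5% ± 14 (n = 7). The labels do not call these sets batches. Within replicates 1 and 2 the mean share was 14.3%, 17.8%, 21.8% (1 library) and 42.9% from thermoneutrality to 7-day cold, and within replicates 3 and 4 it was 31.9%, 43.1%, 46.5% and 51.6%. EC_10 thus stood higher at 7 days than at thermoneutrality in both sets, with log2 odds ratios of 2.13 and 1.19. Against room temperature the 7-day log2 odds ratio was 1.78 and 0.49 within the sets, and with the set as a covariate its overall value of 1.14 passed (SE 0.36; limma, adjusted p = 0.0168). The covariate takes the housing difference to be the same in both sets. For the room temperature comparison the difference between the sets was -1.28 ± 0.62 (limma interaction term, unadjusted p = 0.0661, adjusted p = 0.165). For the thermoneutral comparison it was -0.94 ± 0.62 (limma interaction term, unadjusted p = 0.161, adjusted p = 0.803). With 2 libraries per group and set in these comparisons, the term cannot show that the housing difference is the same in both sets.

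With all named cells as the total, EC_10 was 1.85%, 1.87%, 2.53% and 1.84% at thermoneutrality and 3.21%, 2.40%, 3.35% and 7.84% at room temperature. It was 3.05%, 7.69% and 3.96% after 2 days and 10.6%, 4.40%, 8.51% and 5.32% after 7 days of cold. On this scale both cold groups lay wholly above thermoneutrality. The 7-day comparison passed with a log2 odds ratio of 1.83 ± 0.48 (limma, adjusted p = 0.0163), beside 37% of the 27 named clusters called and 33.3% called higher. For 2-day cold it was 1.2 ± 0.52 (limma, adjusted p = 0.135; 11.1% called), and for room temperature 0.93 ± 0.48 (adjusted p = 0.580; 0% called). With all cells as the total, EC_10 was 0.350% to 0.785% at thermoneutrality and 0.607% to 1.70% after 7 days (limma, log2 odds ratio 0.95 ± 0.62, adjusted p = 0.213), which did not pass. Among named cells the 7-day call was also lost on centred log ratios (1.01; limma, adjusted p = 0.0804) and without the VSM clusters in the total (1.03; limma, adjusted p = 0.102).

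EC_10 was then set against each other EC cluster within the same library, which leaves all remaining cells out of the comparison. At thermoneutrality there were 0.383, 0.447, 0.947 and 0.725 EC_10 cells for each EC_11 cell, and after 7 days of cold 7.26, 2.88, 5.00 and 2.68. The groups did not overlap: EC_10 was the less numerous of the pair in all 4 thermoneutral libraries and the more numerous in all 4 libraries of 7-day cold. Room temperature, with ratios of 0.367, 0.534, 1.72 and 3.8, and 2-day cold, with 0.939, 2.66 and 2.77, each overlapped both thermoneutrality and 7-day cold. The geometric means were 0.585, 1.06, 1.91 and 4.09 from thermoneutrality to 7-day cold.

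**Figure D2:**
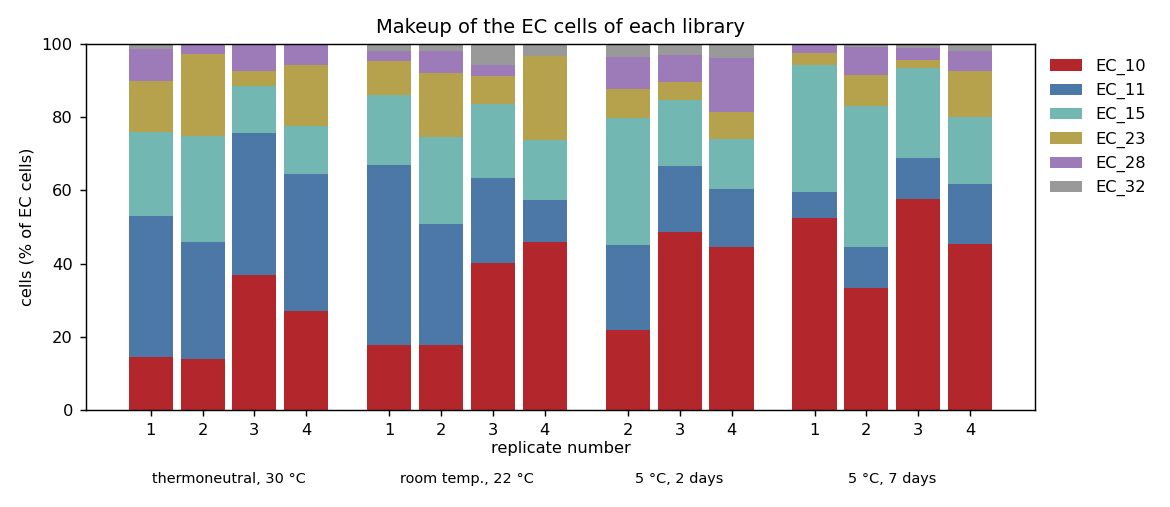
Make-up of the EC cells in each of the 15 libraries with named cells, as stacked percentages of the 6 EC clusters. EC_10 and EC_15 fill most of each 7-day library, and EC_11 was 36.6% of EC cells at thermoneutrality and 11.4% after 7 days on average over 4 libraries each.

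Between thermoneutrality and 7 days of cold, EC_10 rose relative to EC_11 by 2.81 ± 0.80 on the log2 scale (limma over 4 ratios, adjusted p = 0.00399) and relative to EC_23 by 2.23 ± 0.80 (adjusted p = 0.0149), 50% of the ratios. The ratio to EC_28 differed by 1.45 ± 0.80 (limma, adjusted p = 0.1) and that to EC_15 by 0.51 ± 0.80 (adjusted p = 0.523). In this comparison EC_15 came closest to moving with EC_10: there were 1.16, 1.39, 1.75 and 1.65 EC_10 cells for each EC_15 cell as geometric means of the 4 groups. The ratio to EC_28 differed less than that to EC_15 in 2-day cold against thermoneutrality (0.06 against 0.59). The same held in 7-day cold against room temperature (-0.15 against 0.25), and the ratio to EC_15 differed least in the remaining contrasts. The EC_23 call was the less firm, since thermoneutral replicate 3 with 7.89 EC_10 cells per EC_23 cell lay above 7-day replicates 2 and 4 with 3.8 and 3.40. Against room temperature the same pair of ratios was called, by 1.94 ± 0.80 for EC_11 and 1.93 ± 0.80 for EC_23 (limma, adjusted p = 0.0391 each; 50% called). Within a contrast limma gave all 4 ratios a common SE. The ratios share the EC_10 numbers and are not independent, so these limma p-values may be too small. In the other contrasts 0 of 4 ratios passed (0%). Exact permutation tests of the log2 ratios called 0 of 4 in both 7-day comparisons, where a call needs at least 3 of the 4 ratios at the smallest p of 0.0286. Without thermoneutral replicate 1 or 2, or 7-day replicate 1 or 3, limma called 1 of 4 against thermoneutrality. Against room temperature, limma called 0 of 4 without room temperature replicate 1 or 2, or 7-day replicate 1 or 3.

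**Figure D3:**
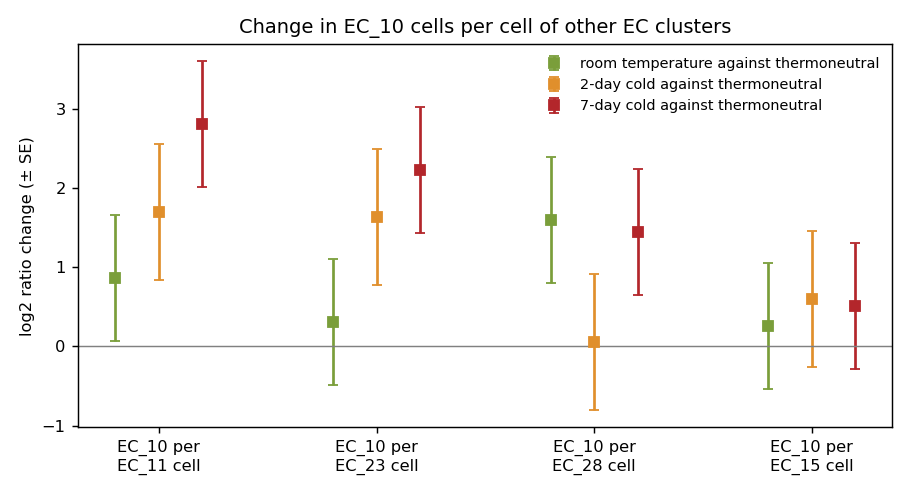
Change in the number of EC_10 cells per cell of EC_11, EC_23, EC_28 and EC_15, as log2 ratio differences of room temperature, 2-day and 7-day cold against thermoneutral housing. Squares are limma estimates with bars of 1 SE, and 0 means no difference; the 7-day estimates for EC_11 (2.81) and EC_23 (2.23) are the 2 that passed, and for EC_15 the 7-day estimate is 0.51.

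Cell cycle scores showed another order of the groups. The authors gave each cell an S score and a G2M score, which set the level of genes of DNA copying (S) and of the run-up to and passage through mitosis (G2M) against control genes. Most EC_10 cells scored near 0, with 731 of 867 at 0.1 or less on both. A tail reached high scores, and a cell was counted as high where either score exceeded 0.2, a limit chosen after the scores had been seen. No gap marked the limit: by the higher score, 45 cells lay between 0.1 and 0.15, 17 between 0.15 and 0.2, 10 between 0.2 and 0.25, and 64 at 0.25 or above. The limit marks a range of scores and not a cell type.

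**Figure D4:**
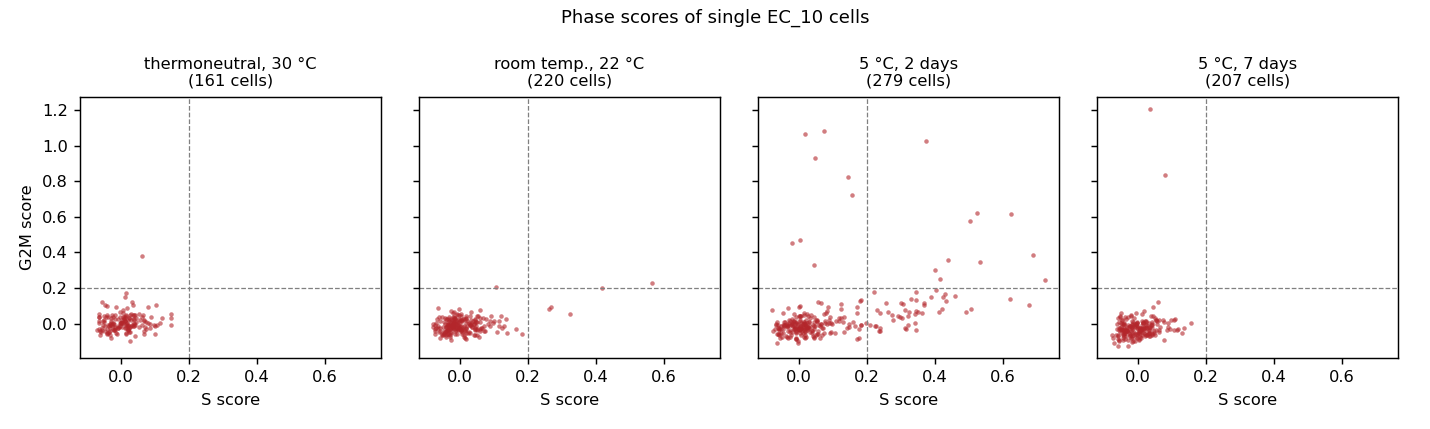
S score against G2M score of the EC_10 cells of each housing group, 1 point per cell, with lines at the limit of 0.2. In 2-day cold 65 of 279 cells lie beyond the lines, most of them along the S axis, against 1 of 161 at thermoneutrality, 6 of 220 at room temperature and 2 of 207 after 7 days.

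High-scoring EC_10 cells gathered in 2-day cold. They were 10 of 77 (13.0%), 25 of 118 (21.2%) and 30 of 84 (35.7%) in replicates 2 to 4, with 95% Wilson intervals of 7.21 to 22.3, 14.8 to 29.4 and 26.3 to 46.4. At thermoneutrality they were 0 of 69, 1 of 10, 0 of 35 and 0 of 47 cells, where a count of 0 allows a share of up to 4.35%, 8.57% and 6.38%. At room temperature they were 0 of 54, 0 of 74, 3 of 64 (4.69%) and 3 of 28 (10.7%), and after 7 days 1 of 83, 0 of 47, 1 of 52 and 0 of 25. The 3 libraries of 2-day cold lay above every other library, the lowest of them (13.0%) close to room temperature replicate 4 (10.7%). Replicates 3 and 4 were again the higher ones at room temperature and in 2-day cold. Within replicates 3 and 4, 2-day cold (21.2% and 35.7%) lay above room temperature (4.69% and 10.7%), 7-day cold (1.92% and 0%) and thermoneutrality (0% in both), and within replicates 1 and 2 its single library (13.0%) lay above room temperature (0% in both), 7-day cold (1.2% and 0%) and the 0% and 10% of thermoneutrality.

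Above the limit of 0.2, the share in 2-day cold was higher than in each other group. Thermoneutral replicate 2, with 10 EC_10 cells, was left out of the fit, and the other 3 thermoneutral libraries were all at 0. The fitted log2 odds ratio of 4.81 ± 1.01 (limma, adjusted p = 0.000209) therefore depends on the 0.5 cells added and bounds no fold. Over all libraries 23.3% of cells were high in 2-day cold and 1 of 161 at thermoneutrality, a pooled ratio of 37.5 with an exact 95% counting interval of 6.50 to 1504. This interval treats cells as independent and leaves out the spread between libraries, 13.0% to 35.7% in 2-day cold. The high-scoring thermoneutral cell was in replicate 2, which the fit left out. At a lower limit of 0.1 on the scores, which 17 of 161 thermoneutral cells passed, the thermoneutral comparison was no longer called (limma, log2 odds ratio 2.14, adjusted p = 0.223). Against room temperature the log2 odds ratio was 3.45 ± 0.95 (limma, adjusted p = 0.00532). Pooled cells gave an 8.54-fold difference, with an exact 95% counting interval of 3.72 to 24.1 that again leaves out the spread between libraries. From 2 to 7 days the share fell by 3.98 ± 0.95 on the log2 odds scale (limma, adjusted p = 0.00106). Of the 6 named clusters with enough cells and high scores to be fitted, EC_10 was the only one called in these 3 comparisons, 16.7% in each. Clusters entered this fit by having at least 5 high-scoring cells, so 16.7% is no share over all named clusters. EC_28, with 23 of 76 high-scoring cells in 2-day cold, was not fitted. Exact permutation tests of the library percentages gave p = 0.1 against thermoneutrality, the smallest that 3 against 3 can give, and p = 0.0286 against both room temperature and 7-day cold, the smallest for 3 against 4.

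The remaining contrasts did not pass. Room temperature against thermoneutrality had a log2 odds ratio of 1.37 ± 0.95 (limma, adjusted p = 0.95; 0% called) and 7-day cold against thermoneutrality 0.83 ± 0.95 (adjusted p = 0.579; 16.7% called, the cluster ECAP_4). Both signs turned at a lower limit of 0.1, with values of -0.55 and -0.70.

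**Figure D5:**
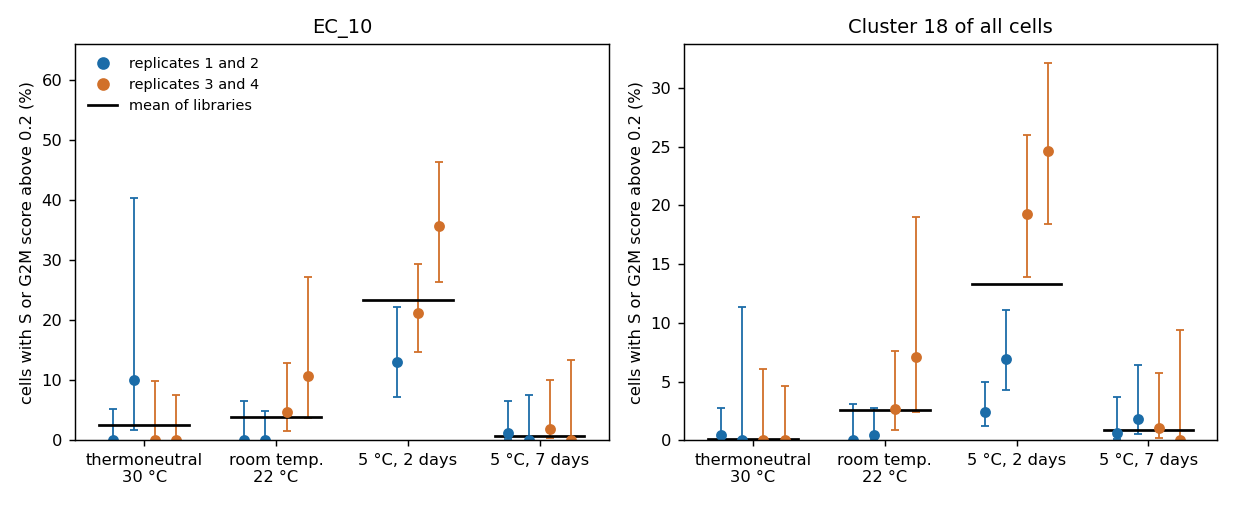
Percentage of cells with an S or G2M score above 0.2 in EC_10 (left) and in cluster 18 of all cells (right), by library and housing group. Points carry 95% Wilson intervals and the colour of their replicate set, and lines are group means over all libraries drawn; 2-day cold reaches 35.7% in EC_10 and 24.7% in cluster 18, and 2-day replicate 1, which has no named cells, stands at 2.46% in cluster 18.

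In 2-day cold 54 of the 65 high-scoring EC_10 cells were called S and 11 G2M. The S score exceeded 0.2 in 57, the G2M score in 18, and both in 10. The excess was thus mainly on the score of DNA copying genes. EC_10 held 51.6% of all 126 high-scoring named cells of 2-day cold while it was 4.52% of the named cells there. At room temperature it held 6 of 18 (33.3%) while it was 3.13% of the named cells. It held 1 of 38 (2.63% against 1.96%) at thermoneutrality and 2 of 45 (4.44% against 7.06%) after 7 days. These shares pool the cells of all libraries of a group and leave out unnamed cells. Among EC clusters EC_28 also had its highest share of high-scoring cells in 2-day cold. There it had 23 of 76 cells (30.3%), against 2 of 60, 2 of 38 and 2 of 21 in the other groups. It had too few cells per library for the fit. EC_11 had 4 of 156 in 2-day cold, EC_15 4 of 193, EC_23 0 of 54 and EC_32 1 of 27.

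EC_10 exceeded the other EC cells of its own library in high-scoring cells by 8.64, 16.4 and 22.4 percentage points in 2-day cold. This gap was 16.1 points wider than at thermoneutrality (exact permutation p = 0.1, adjusted p = 0.2), 12.3 wider than at room temperature (exact p = 0.0857, adjusted 0.2) and from 2 to 7 days it fell by 16.2 points (exact p = 0.0286, adjusted 0.171). Since 0.0286 is the smallest p these numbers of libraries allow, and 0.1 the smallest for 3 against 3, the adjusted test could hardly pass, and whether EC_10 differs from the other EC cells in this pattern cannot be read from it.

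High-scoring EC_10 cells were deeper, with a median of 7332.5 UMIs against 4763 in the rest. In 2-day cold the medians were 8018 and 5293.5 UMIs, and the mitochondrial share was 3.3% against 2.95%. Cells with RNA of more than 1 cell were not called and free RNA was not measured, and the part of either, or of depth, in the scores was not tested by thinning. Among EC_10 cells of no less than the cluster's median UMI number, the log2 odds ratio of 2-day cold against thermoneutrality was 3.98 ± 1.11 (limma, adjusted p = 0.00432, at least 10 such cells per library).

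The library of 2-day cold without names could be reached through the clustering of all cells. Of 61 clusters at the finest resolution of 1.8, cluster 18 held 813 EC_10 cells, 93.8% of EC_10, and cluster 22 another 49. Cluster 18 was a mixture: among its 1607 named cells 50.6% were EC_10 and 651 were EC_15. Its high-scoring share was 0.490%, 0%, 0% and 0% at thermoneutrality, 0%, 0.490%, 2.70% and 7.14% at room temperature, and 0.662%, 1.83%, 1.05% and 0% after 7 days. In 2-day cold it was 2.46% in replicate 1, from 7 of 285 cells with a 95% Wilson interval of 1.19 to 4.98, and 6.94%, 19.3% and 24.7% in the others. All 4 libraries of 2-day cold lay above thermoneutrality and 7-day cold, and replicate 1 overlapped room temperature. The difference was 13.2 points against thermoneutrality and 10.7 points against room temperature (exact permutation p = 0.0286 and 0.143), and from 2 to 7 days the mean share differed by -12.4 points (exact permutation p = 0.0286). Adjusted over 6 contrasts, these p-values were 0.0857, 0.214 and 0.0857, where a call would need 4 of the 6 contrasts at the smallest p of 0.0286.

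As a share of all cells, cluster 18 was 1.42% ± 0.630 (SD, n = 4) at thermoneutrality, 2.49% ± 1.35 at room temperature, 2.09% ± 0.630 after 2 days and 2.20% ± 0.851 after 7 days. With limma the log2 odds ratios against thermoneutrality were 0.79 ± 0.59 (adjusted p = 0.923; 0% of 55 clusters called), 0.65 ± 0.59 (adjusted p = 0.639; 9.09% called, 7.27% higher) and 0.68 ± 0.59 (adjusted p = 0.464; 0% called). No difference passed.

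EC_10 cells had a median of 4995 UMIs (quartiles 2423 and 9459), 1982 genes and a mitochondrial share of 3.36%. This placed EC_10 between EC_15 with 3099.5 UMIs and EC_11 with 12804, and 10 of its cells had 20% or more mitochondrial UMIs. Per library the EC_10 median ran from 2941 UMIs in thermoneutral replicate 4 to 7988.5 in room temperature replicate 1. Over libraries with at least 20 EC_10 cells, group means of these medians were 4477 ± 1351 (SD, n = 3), 5454 ± 1887 (n = 4), 5940 ± 700 (n = 3) and 3970 ± 1250 (n = 4) UMIs from thermoneutrality to 7-day cold.

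The share of EC_10 cells called S or G2M was 75.4% ± 6.44 (SD, n = 3) at thermoneutrality, 67.3% ± 11 (n = 4) at room temperature, 77.1% ± 7.64 (n = 3) after 2 days and 60.0% ± 8.58 (n = 4) after 7 days. The call was less stable than the scores, since only 61.5% of EC_10 cells had the same call in both of the authors' tables. The scores themselves correlated with r = 0.988 (S) and 0.994 (G2M) over the 867 cells. Why the calls differed was not tested. Mean S scores were 0.00967, 0.0200, 0.0949 and 0.00584, highest in 2-day cold. Of 36 exact permutation tests on UMIs, genes, mitochondrial share, phase calls and mean scores, 0 passed after adjustment (lowest adjusted p = 0.206) and 5 had the unadjusted p of 0.0286, the smallest for 3 against 4, so the adjusted test had little room to call any. These 5 were genes, mitochondrial share, S score and G2M score between 7-day and 2-day cold, and the G2M score between 2-day cold and room temperature.

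How EC_10 was bounded depended on the resolution of the authors' clustering. Among named cells its 867 cells were 1 cluster of their own at 1.2, where the name was given, and at 1.4, and 864 of them stayed together from 0.6 to 1. At 1.8 it split into 522 cells (60.2%, numbered 18 in that table) and 345 cells (39.8%, numbered 26). At 0.4 the same 345 cells formed a cluster, while the 522 fell in a cluster of 2368 cells with 834 EC_11 and 690 EC_15 cells, and at 0.1 all 867 fell in a cluster of 2708 cells. The smaller subset was deeper, with a median of 6137 UMIs against 3625.5, and higher in 14 of 15 libraries. It held 47 of the 74 high-scoring cells. In 2-day cold the high-scoring share was 6.52%, 18.5% and 22.2% in the larger subset and 22.6%, 27% and 42.1% in the smaller one, so both carried it.

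The smaller subset was 30.4%, 40%, 45.7% and 25.5% of EC_10 at thermoneutrality and 29.6%, 32.4%, 46.9% and 50% at room temperature. It was 40.3%, 31.4% and 67.9% after 2 days and 31.3%, 23.4%, 63.5% and 52% after 7 days. Group means of 35.4%, 39.7%, 46.5% and 42.5% over these libraries lay within their spread. Exact permutation tests, which left out thermoneutral replicate 2 with its 10 EC_10 cells, gave an adjusted p of 0.8 in all 6 contrasts. A shift between the subsets with housing was not detectable with these libraries.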

How the data were processed

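Libraries were Chromium 3′ v3, per the labels' protocols; STAR, Cell Ranger 3.0.1 and mm10 are named in the submitters' processing notes, which give no cell filter or clustering setting here. The authors deposited 2 tables of cells, one of all 109723 cells and one of the 24352 named cells, with UMI counts and gene counts per cell as whole numbers. The mitochondrial fraction was deposited as a number between 0 and 1 and is printed in percent. S and G2M scores and phase calls were deposited by the authors; totals per cell after SCT normalisation and the ratio log10 genes over log10 UMIs, also deposited, were not used.

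Cells were joined by barcode and library, and groups came from the sample titles. Per-library cell numbers of EC_10, with 0.5 cells added to it and to the rest, became log2 odds, to which limma 3.58.1 (R 4.3.3) was fitted with 4 groups and 6 contrasts. Limma shares variance over the clusters of a fit, and for the EC clusters and their ratios it gave a common SE within a contrast. Clusters averaging under 10 cells a library were left out. P-values were two-sided, adjusted by Benjamini-Hochberg within a contrast, with a threshold of 0.05. EdgeR 4.0.16 and exact permutation tests were alternatives, and exact tests were the main test for per-library medians and scores, over libraries with at least 20 EC_10 cells. The high-score fit took named clusters with at least 20 cells in at least 2 libraries of every group and at least 5 high-scoring cells. The limma step was tested on simulated cell numbers. In place of genes, the clusters named are EC_10, the other EC clusters, and clusters of all cells holding at least 5% of EC_10. Wilson intervals, the exact intervals of pooled ratios and limits for a count of 0 (3 cells) cover counting error alone, and libraries of 10 to 118 EC_10 cells limit the precision. Members, lists and tests were chosen with earlier results of these data known, and the high-score and subset comparisons after the cells' values were seen.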

Additional observations from a re-analysis of the deposited data

Results flagged for a closer look

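Single libraries that stood far from the others of their group were sought in 53 groups of 4 libraries, where chance marks about 1 in 20; 6 were found. Thermoneutral replicate 3 held 2.53% EC_10 among named cells, against 1.84% to 1.87% in the other 3, and 7.89 EC_10 cells per EC_23 cell, against 0.636 to 1.61. Room temperature replicate 4 had a mitochondrial median of 6.23% in EC_10, against 2.68% to 3.28%, and a ratio of 57 EC_10 cells per EC_28 cell, which rests on 28 EC_10 cells and no EC_28 cell with 0.5 added to both. Thermoneutral replicate 2 had 10% high-scoring EC_10 cells, which is 1 of 10 cells. Thermoneutral replicate 1 had 0.490% high-scoring cells in cluster 18, which is 1 of 204 cells, against 0 in the other 3. In both of these high-score cases the other libraries were at 0, so any value above 0 would have been flagged. The rate of 1 in 20 does not hold for them.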

How the results depend on the processing

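For 7-day cold against thermoneutrality, the log2 odds ratio of EC_10 among EC cells was 1.41 to 2.01 when 1 library was left out. It missed the threshold with TMM-scaled edgeR (1.10), by exact permutation (24.2 points), in cells below the median UMI count (0.97) and in libraries with at least 100 EC cells (1.56). Against room temperature, the 7-day value (1.14) passed with the replicate block (1.14), with replicate sets as a covariate (1.14), on the arcsine scale (0.18, not a log2 value), in cells of no less than the median UMI count (1.47) and without room temperature replicate 4 (range 0.83 to 1.49). Within replicates 1 and 2 it was 1.78, within replicates 3 and 4 0.49, and 7-day against 2-day cold was 1.41 within replicates 1 and 2. For 2-day cold against thermoneutrality, 1.59 passed in those deeper cells, and room temperature against thermoneutrality reversed in cells below the median (-0.0026). Among named cells the 7-day value missed the threshold on the centred log-ratio scale (1.01), without VSM clusters (1.03) and over all cells (0.95), and kept it without any 1 library (1.60 to 2.05); for 2-day cold the exact permutation passed (2.88 points). The count of ratios that passed was 0 to 1 without 1 library for room temperature and for 2-day cold against thermoneutrality, where the replicate block gave 1. It was 1 to 3 for 7-day cold against thermoneutrality and 0 to 2 against room temperature, and 0 by exact permutation in both, where a call needs at least 3 ratios at the smallest p. For high-scoring cells in 2-day cold against thermoneutrality, a limit of 0.1 gave 2.14 (limma, adjusted p = 0.223) and exact permutation 23.3 points (p = 0.1, the smallest it can give). Reversed values were -0.55 at 0.1 for room temperature, and -0.70 at 0.1 and -0.16 with a minimum of 10 cells for 7-day cold, all against thermoneutrality. The causes were not tested.

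Same-numbered libraries correlated with r above 0.1 in 12 of 21 pairs (-0.30 to 0.65), and 7 of 15 libraries correlated best with their own number, so the numbers were not taken to pair libraries. The block moved no other call. No cluster of all cells held 80% EC_10, so that alternative could not be run. Thinning cells to 1 depth needs gene values and was not run.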
